A study of Mus musculus with 9 samples.

Results

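GABAergic interneuron markers are the genes by which inhibitory neurons of the cortex and their subtypes are recognised, and 31 of them, listed by name, were taken from the 43629 genes with deposited counts. They fall into 4 roles: 3 genes of GABA synthesis and vesicle loading, 9 genes of nuclear regulators, 11 neuropeptide genes including the gene of a peptide-binding protein, and 8 genes of calcium-binding proteins, channels and other proteins. RNA-seq was performed on the frontal cortex of 4 Neat1-/- mice (replicates 1, 3, 4 and 5, aged 3, 3, 4 and 2 months) and 5 wild-type (WT) mice (replicates 1 to 5, aged 2, 2, 3, 4 and 4 months). All 9 mice were female and of the C57BL/6 background, and each gave 1 library from RNA depleted of ribosomal RNA. The gene disrupted, Neat1, makes a long noncoding RNA that scaffolds nuclear bodies called paraspeckles. In the Neat1-/- allele a lacZ cassette with polyA signals interrupts the gene near its 5′ end, and this is not restricted to interneurons.

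Cortical interneurons release GABA, the main inhibitory transmitter of the brain, onto pyramidal neurons and onto each other. Parvalbumin and somatostatin interneurons come from the medial ganglionic eminence of the embryo, where Lhx6 and Maf act, whereas interneurons that express Vip, Reln, Htr3a, Prox1 or Adarb2 come largely from the caudal ganglionic eminence. Many of the markers are not exclusive to interneurons. Cck is also made by cortical pyramidal neurons, and Penk and Tac1 are abundant in projection neurons of the striatum, which lies beneath the frontal cortex.

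Of the markers on which the comparison turned, Cck, Tac1 and Penk encode precursors from which short peptides are cut. Sst and Tac1 each have a close relative among the markers, Cort and Tac2, so the stretches that code for the active peptides are shown for these pairs. The bases are from GENCODE vM21 transcripts on GRCm38, in the sense of the mRNA and 5′ to 3′. Capitals mark the shared peptide core of a pair, or the part of a single peptide on which receptor recognition depends most.
Sst, somatostatin-14, chr16:23889732-23889773, minus strand: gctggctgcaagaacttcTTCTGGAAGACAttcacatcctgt
Cort, cortistatin-14, chr4:149125267-149125308, minus strand: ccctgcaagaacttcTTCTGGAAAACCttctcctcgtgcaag
Tac1, substance P, chr6:7556732-7556764, plus strand: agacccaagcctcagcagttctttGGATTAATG
Tac2, neurokinin B, chr10:127729116-127729145, plus strand: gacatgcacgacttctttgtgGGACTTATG
Cck, cholecystokinin-8, chr9:121490107-121490130, minus strand: gactacatgggcTGGATGGATTTT
Penk, Met-enkephalin, first of 6 copies, chr4:4134334-4134348, minus strand: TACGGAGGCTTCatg

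All 6 stretches lie in coding exons. Sst and Cort were identical at 10 of the 12 capital bases, and Tac1 and Tac2 at 7 of 9. Over the annotated transcripts, 10 pairs of related markers (among them Gad1 and Gad2, Sst and Cort, Tac1 and Tac2, Kcnc1 and Kcnc2, and pairs of Dlx genes) had 0 stretches of 50 bases in common. Among all 465 pairs of markers, 7 shared 2 to 5 such stretches, all of them pairs within Vip, Lhx6, Kcnc1, Maf and Nos1. The exons of 9 markers overlapped another counted gene model, in 8 cases on the opposite strand, and it is not stated whether the counting used strand. The partner with the highest level was Dlx1as, which averaged 2.4 CPM and shared 335 bases with Dlx1, or 6.21% of the exons of Dlx1. For Penk, 14.3% of the exon bases overlapped A830012C17Rik, which averaged 0.0501 CPM.

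Neat1 RNA, the target of the allele, was checked first. Its level was 7.38, 7.11, 8.36 and 9.72 CPM (counts per 1000000 after TMM scaling, which corrects library size for composition) in Neat1-/- replicates 1, 3, 4 and 5, against 60.8, 83.2, 119.9, 68.1 and 75.3 CPM in WT replicates 1 to 5. The levels did not overlap. EdgeR's quasi-likelihood test over 19753 genes gave a log2 fold change of -3.33 with a standard error of 0.19 (adjusted p = 1.27e-06). Library totals overlapped, with 52629603 to 64648856 counts per Neat1-/- mouse and 51276067 to 62819932 counts per WT mouse. No marker lay on chromosome 19, the chromosome of Neat1, and the markers were spread over 14 chromosomes. In earlier results of these data, WT replicates 3 and 4 stood away from the rest, and the counts and the 3 peptide genes below are also given without them.

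The interneuron signature was present in every library and ran over a wide range of levels. All 31 markers passed the filter on low counts, and 28 of them had at least 100 counts in each library. The lowest count of any marker in any library was 20 and the highest was 22161. Between genes, levels were compared as CPM per kilobase of annotated exon, which follows the annotated length and is only approximate where transcripts are shorter. On that scale Cck had the highest level, with a mean of 180.8 in Neat1-/- mice and 195.7 in WT mice. Sst followed with 102.8 in Neat1-/- mice and 100.7 in WT mice, then Npy with 83.0 in Neat1-/- mice and 87.4 in WT mice, and Pvalb with 56.1 in Neat1-/- mice and 54.9 in WT mice. Gad1 had 44.1 in Neat1-/- mice and 43.4 in WT mice, and Vip and Gad2 had adjoining levels in WT mice, 17.5 and 16.1. At the other end stood Dlx2, Dlx5 and Chodl, all under 1 on this scale. Chodl, which marks a rare class of long-range somatostatin neurons, had 0.128 in Neat1-/- mice and 0.103 in WT mice. Across the 5 WT mice the coefficient of variation of a marker had a median of 8.33%, with a range from 2.57% (Kcnc2) to 31.2% (Dlx5).

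**Figure D1:**
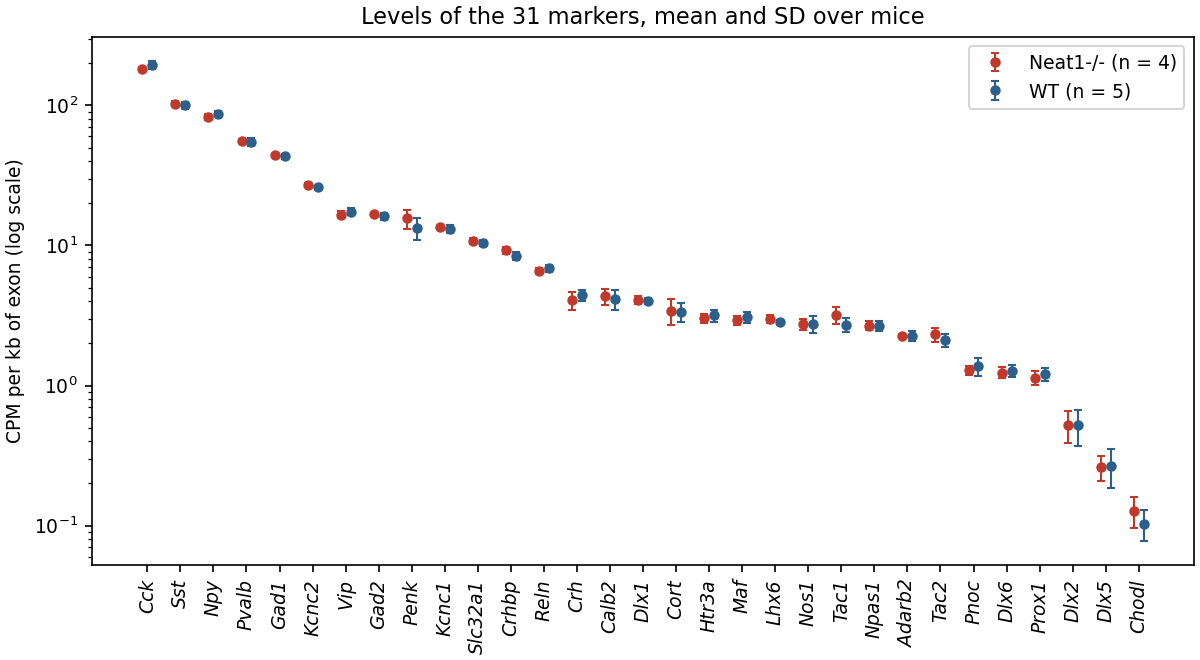
Level of each of the 31 markers in CPM per kilobase of exon on a log axis, in order of the WT mean, as mean and SD over 4 Neat1-/- mice (red) and 5 WT mice (blue). The bars of the genotypes lie close together for every marker over a range from 195.7 for Cck to 0.103 for Chodl in WT mice.

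The comparison asked whether loss of Neat1 RNA went with a different level of interneuron transcripts in the adult frontal cortex. In bulk tissue, fewer cells of a type and less RNA per cell cannot be told apart, and the p-values measure the spread between these mice. None of the 31 markers passed an adjusted p of 0.05 with edgeR, against 14 of all 19753 genes (0.0709%). The smallest adjusted p of a marker was 0.580. DESeq2 also called 0 of the 27 markers to which it gave an adjusted p (76 genes of 12859 in all, 0.591%), and limma with voomWithQualityWeights called 0 of 31 (22 genes in all, 0.111%). At an unadjusted p under 0.05 in edgeR, 2 markers were higher in Neat1-/- mice, Tac1 and Penk, a share of 6.45% beside 4.27% of all genes. Only Cck of the 31 was lower in Neat1-/- mice at that threshold, a share of 3.23% beside 4.03% of all genes. These shares stand near those of all genes, and each amounts to 1 or 2 markers. With DESeq2 the same 3 markers had an unadjusted p under 0.05, and with limma Cck, Tac1 and Crhbp. The count of higher markers was 0 with Neat1-/- replicate 1 or 3 left out, beside 2.39% and 2.48% of all genes in those fits. It was also 0 with WT replicate 3 or 4 left out (3.67% and 2.4% of all genes), and 1, Crhbp, with WT replicate 2 left out (3.88%). It was 3 with Neat1-/- replicate 4 or WT replicate 5 left out, beside 3.22% and 6.13% of all genes. The count of lower markers was 0 with Neat1-/- replicate 1 or 5 left out, beside 3.11% and 4.05% of all genes. It was 1 with Neat1-/- replicate 3 or WT replicate 2 left out (2.68% and 5.37% of all genes), where it was Npy and not Cck. It was 2, Cck and Nos1, with WT replicate 4 left out (3.10% of all genes). With WT replicates 3 and 4 both left out, Kcnc1 was higher, beside 3.81% of all genes, Cck and Nos1 were lower, beside 3.48% of all genes, and Tac1 and Penk did not pass that threshold.

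The size of the differences was small and was bounded closely for most markers. The log2 fold change was positive for 18 and negative for 13 markers, with a median of 0.02 beside a median of -0.00023 for all genes tested. Without Neat1-/- replicate 4 the median of the markers was -0.0039. Of the 31 markers, 28 differed by less than 1.1-fold in their estimate, and Chodl alone, with 21 to 53 counts per library, differed by more than 1.2-fold. For 17 markers the whole 95% interval of the fold change lay within 1.2-fold in either direction. The genotypes overlapped in CPM for each of the 31 markers, whereas 2.67% of all genes showed no overlap.

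**Figure D2:**
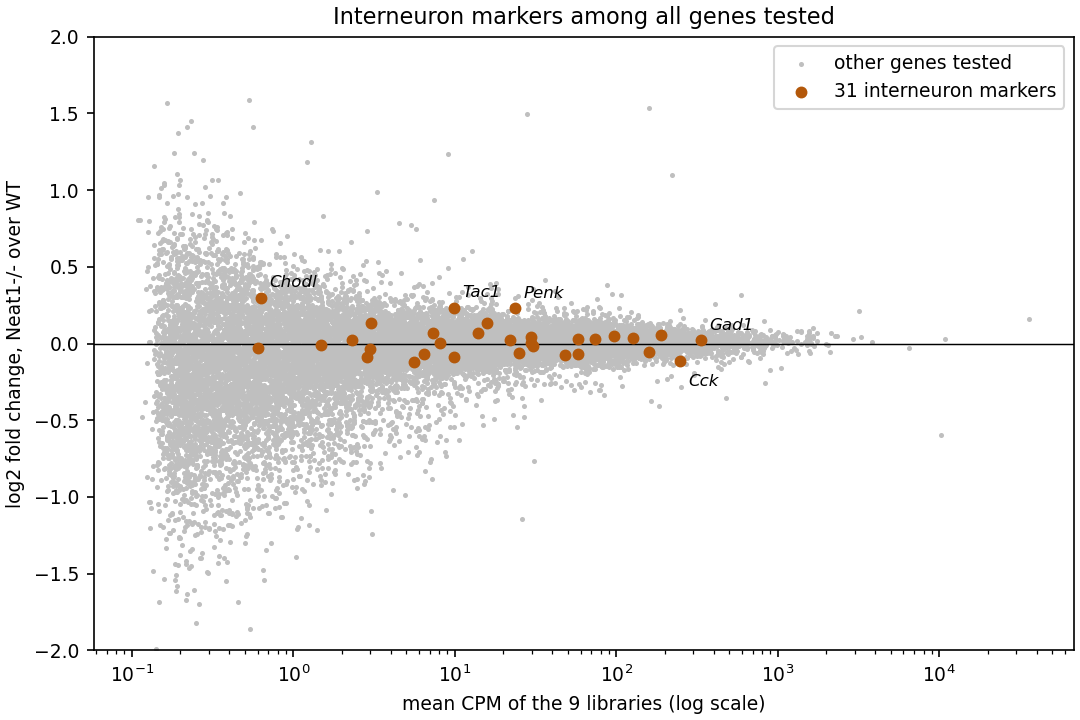
Log2 fold change of Neat1-/- over WT against the mean CPM of the 9 libraries (log axis) for all genes tested (grey, with 3 genes beyond the axis limit of 2) and the 31 interneuron markers (orange). The markers lie inside the cloud of other genes at their level, with Tac1 and Penk near its upper edge and Cck near its lower edge.

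The genes of GABA synthesis and loading all had positive estimates of a few percent, with intervals that included 0. Gad1, which encodes the GAD67 form of glutamate decarboxylase and makes most GABA of the cell body (chr2:70553072-70602014), had 345, 339, 324 and 340.1 CPM in Neat1-/- replicates 1, 3, 4 and 5, against 315, 349, 338, 335 and 321 CPM in WT replicates 1 to 5. All 4 Neat1-/- values lay inside the WT range. The means were 337 ± 9.26 CPM in Neat1-/- mice (SD, n = 4) and 332 ± 13.6 CPM in WT mice (SD, n = 5). EdgeR gave a log2 fold change of 0.02 with a standard error of 0.035, and the 95% interval of the difference from the WT level ran from -3.63% to 7.05% (unadjusted p = 0.532, two-sided exact permutation p = 0.532).

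Gad2, the GAD65 form that serves synaptic terminals (chr2:22622205-22693874), had 94.3, 101, 97.4 and 98.5 CPM in Neat1-/- replicates 1, 3, 4 and 5, against 97.4, 100.4, 93.6, 85.6 and 96.3 CPM in WT replicates 1 to 5. WT replicate 4 was the lowest of all and the other 8 mice spread over a narrow range. Its log2 fold change was 0.05 (standard error 0.04, 95% interval -2.62% to 9.75%, edgeR p = 0.251, exact permutation p = 0.389). Slc32a1, the vesicular GABA transporter VGAT (chr2:158610767-158615748), had 30.0, 30.5, 28.3 and 31.6 CPM in Neat1-/- replicates 1, 3, 4 and 5, against 29.2, 30.4, 27.3, 30.4 and 28.8 CPM in WT replicates 1 to 5. The genotypes overlapped over most of their range, and the log2 fold change was 0.04 (standard error 0.046, 95% interval -3.93% to 10.4%, edgeR p = 0.376, exact permutation p = 0.341).

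Among the 9 genes of nuclear regulators, 4 estimates were positive and 5 negative, their median on the log2 scale was -0.01, and 0 had an unadjusted p under 0.05 in edgeR. Lhx6, the transcription factor of the medial eminence lineage, had 13.1 to 15.3 CPM in Neat1-/- mice and 12.9 to 14.1 CPM in WT mice, with a log2 fold change of 0.07, a standard error of 0.053 and an adjusted p of 0.722. Maf, which acts in the same lineage, had 21.9 to 26.2 CPM in Neat1-/- mice and 23.1 to 29.3 CPM in WT mice. Prox1 and Adarb2, used to recognise the caudal eminence lineage, differed by -0.08 (standard error 0.087) and 0.00 (standard error 0.057) on the log2 scale. The lineage regulators therefore gave values on either side of 0 with ranges that overlapped.

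For Npas1, a repressor found in subsets of interneurons, the log2 fold change was 0.00 (standard error 0.081). Dlx1, a homeobox factor that directs forebrain GABAergic neurons, had 20.1 to 23.4 CPM in Neat1-/- mice and 20.5 to 22.7 CPM in WT mice, and its log2 fold change was 0.02 (standard error 0.055). Its relatives were low in the adult cortex, Dlx6 at 2.62 to 3.24 CPM in Neat1-/- mice and 2.54 to 3.35 CPM in WT mice, and Dlx2 and Dlx5 at 20 to 131 counts per library. For Dlx5 the 95% interval ran from -36.2% to 50.2%.

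The 3 genes by which the main interneuron classes are named differed little between the genotypes. Pvalb, the calcium buffer of fast-spiking interneurons (chr15:78191114-78206400), had 60.7, 58.0, 56.3 and 58.5 CPM in Neat1-/- replicates 1, 3, 4 and 5, against 54.7, 58.3, 53.4, 63.4 and 56.0 CPM in WT replicates 1 to 5. All 4 Neat1-/- values lay inside the WT range, and the log2 fold change was 0.03 (standard error 0.048, 95% interval -4.97% to 9.86%, edgeR p = 0.531, exact permutation p = 0.579). Sst, the somatostatin precursor gene (chr16:23889573-23890958) whose peptide code is printed above, had 69.4, 75.2, 75.9 and 75.9 CPM in Neat1-/- replicates 1, 3, 4 and 5, against 79.4, 72.4, 69.7, 68.2 and 73.1 CPM in WT replicates 1 to 5. Neat1-/- replicate 1 was the lowest of its group and WT replicate 1 the highest of all. For Sst the log2 fold change was 0.03 (standard error 0.044, 95% interval -4.35% to 9.10%, edgeR p = 0.495, exact permutation p = 0.579).

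Vip, the vasoactive intestinal peptide gene of interneurons that inhibit other interneurons (chr10:5639218-5647617), had 58.4, 51.7, 57.7 and 58.5 CPM in Neat1-/- replicates 1, 3, 4 and 5, against 59.9, 65.4, 57.2, 58.3 and 56.4 CPM in WT replicates 1 to 5. Only Neat1-/- replicate 3 fell below the WT range. Its log2 fold change was -0.07 (standard error 0.047, 95% interval -11.1% to 2.22%, edgeR p = 0.162, exact permutation p = 0.341). The balance between classes, chosen for description after the values had been seen, overlapped as well. The ratio of Sst to Pvalb CPM was 1.14 to 1.35 in Neat1-/- mice, against 1.08 to 1.45 in WT mice, and that of Vip to Sst was 0.688 to 0.842 in Neat1-/- mice, against 0.754 to 0.902 in WT mice.

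**Figure D3:**
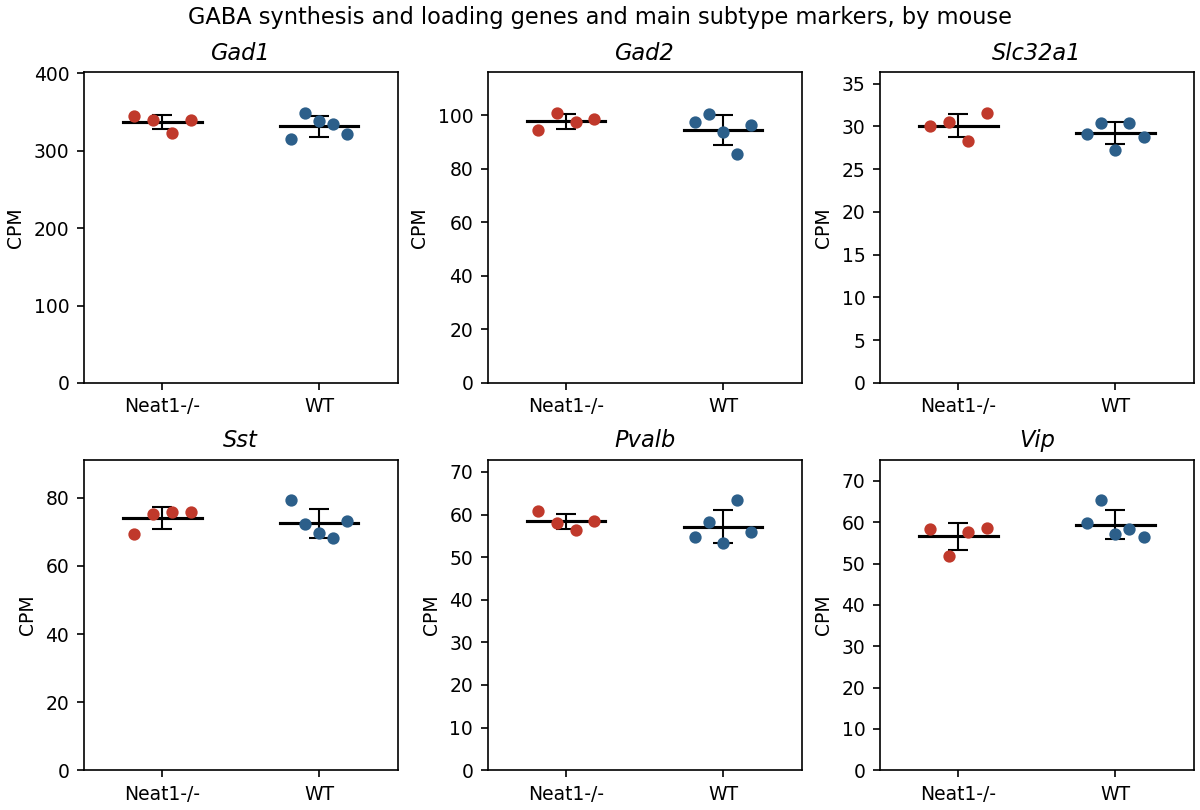
CPM of Gad1, Gad2, Slc32a1, Sst, Pvalb and Vip in each mouse (points), with the mean (line) and SD (bar), for 4 Neat1-/- mice (left, red) and 5 WT mice (right, blue), each axis starting at 0. The groups overlap for all 6 genes. Points that are low within their own group are Sst in Neat1-/- replicate 1 at 69.4 CPM and Vip in Neat1-/- replicate 3 at 51.7 CPM. Gad2 in WT replicate 4, at 85.6 CPM, is low in the same way. For Sst, WT replicate 4 is lower still, at 68.2 CPM.

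Of the 11 genes of neuropeptides and their binding protein, 6 estimates were positive and 5 negative, and the 3 markers with an unadjusted p under 0.05 in edgeR were all in this group. Cck, the cholecystokinin precursor gene (chr9:121489824-121495694), had 231, 228, 245 and 239.6 CPM in Neat1-/- replicates 1, 3, 4 and 5, against 269, 273, 235, 241 and 258 CPM in WT replicates 1 to 5. WT replicates 3 and 4 lay within the Neat1-/- range and WT replicates 1, 2 and 5 above it. The means were 235.9 ± 7.94 CPM in Neat1-/- mice (SD, n = 4) and 255 ± 16.7 CPM in WT mice (SD, n = 5). On the log2 scale Cck differed by -0.11 (standard error 0.044, 95% interval -13.5% to -1.21%, edgeR p = 0.0239, adjusted p = 0.580, exact permutation p = 0.0794). DESeq2 gave an unadjusted p of 0.0103 and limma one of 0.0046.

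With Neat1-/- replicate 1, 3 or 5 left out, the unadjusted edgeR p of Cck was 0.0553, 0.068 and 0.0578, and with WT replicate 2 left out it was 0.0573. It was 0.0038 with Neat1-/- replicate 4 left out. With WT replicate 1, 3, 4 or 5 left out it was 0.044, 0.00255, 0.0129 and 0.047. With age as a factor that p was 0.058, and with the replicate number as a block it was 0.0844. Without WT replicates 3 and 4 the log2 fold change of Cck was -0.18, with an unadjusted edgeR p of 0.000248 and an adjusted p of 0.144. These mice had the lowest WT values of Cck, so leaving them out widens the difference by itself. Cortical pyramidal neurons also make Cck, and the ratio of Cck to Slc17a7, the vesicular glutamate transporter gene of pyramidal neurons, was 0.257 to 0.295 in Neat1-/- mice, against 0.287 to 0.318 in WT mice. That ratio was chosen after the values had been seen. Which neurons account for the difference in Cck was not tested.

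Tac1, the substance P precursor gene (chr6:7554879-7565834), had 11.4, 12.7, 9.91 and 9.30 CPM in Neat1-/- replicates 1, 3, 4 and 5, against 10.7, 8.79, 8.13, 8.48 and 9.92 CPM in WT replicates 1 to 5. Neat1-/- replicates 1 and 3 lay above the WT range and replicates 4 and 5 within it. The means were 10.8 ± 1.54 CPM in Neat1-/- mice (SD, n = 4) and 9.21 ± 1.08 CPM in WT mice (SD, n = 5). On the log2 scale Tac1 differed by 0.23 (standard error 0.11, 95% interval 0.149% to 38.3%, edgeR p = 0.0482, adjusted p = 0.599, exact permutation p = 0.0952). With Neat1-/- replicate 3 left out the difference was 0.15, with an unadjusted p of 0.196, and with replicate 1 left out that p was 0.122. It was 0.104, 0.110 and 0.109 with WT replicate 2, 3 or 4 left out in turn. With Neat1-/- replicate 4 or 5 left out the p was 0.0405 and 0.011, and with WT replicate 1 or 5 left out 0.0171 and 0.0309. The difference was 0.32 without Neat1-/- replicate 5 and 0.30 without WT replicate 1. With WT replicates 3 and 4 both left out the difference was 0.13, with an unadjusted p of 0.254.

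Penk, the proenkephalin gene (chr4:4133531-4138819), had 24.3, 31.04, 21.6 and 25.1 CPM in Neat1-/- replicates 1, 3, 4 and 5, against 28.6, 20.96, 20.3, 18.4 and 21.01 CPM in WT replicates 1 to 5. WT replicate 1 stood above 3 of the 4 Neat1-/- mice, and the other 4 WT mice lay below all Neat1-/- mice. The means were 25.5 ± 3.97 CPM in Neat1-/- mice (SD, n = 4) and 21.9 ± 3.93 CPM in WT mice (SD, n = 5). On the log2 scale Penk differed by 0.23 (standard error 0.10, 95% interval 0.374% to 36.9%, edgeR p = 0.0455, adjusted p = 0.597, exact permutation p = 0.230). Leaving out Neat1-/- replicate 3 gave a difference of 0.12, with an unadjusted p of 0.214, and leaving out WT replicate 1 gave 0.31, with an unadjusted p of 0.00596. That p was 0.057 with Neat1-/- replicate 1 left out and 0.126, 0.0927 and 0.104 with WT replicate 2, 3 or 4 left out in turn. With WT replicates 3 and 4 both left out the difference was 0.16, with an unadjusted p of 0.196.

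Some genes of striatal projection neurons, among them Drd1 and Ppp1r1b, were high in some of the same mice as Penk and Tac1. Drd1, the D1 dopamine receptor gene of these neurons, had 18.3, 20.3, 15.7 and 18.7 CPM in Neat1-/- replicates 1, 3, 4 and 5, against 22.6, 13.1, 14.4, 15.1 and 14.2 CPM in WT replicates 1 to 5. Its highest values were in WT replicate 1 and Neat1-/- replicate 3, the same mice in which Penk was highest. The ratio of Penk to Drd1 averaged 1.39 ± 0.0910 in Neat1-/- mice (SD, n = 4) and 1.39 ± 0.157 in WT mice (SD, n = 5), and that of Tac1 to Drd1 averaged 0.594 ± 0.0651 in Neat1-/- mice (SD, n = 4) and 0.594 ± 0.0915 in WT mice (SD, n = 5). These ratios were chosen after the values had been seen and are given without a test. Ppp1r1b, the DARPP-32 gene of the same neurons, had 33.4 to 41.4 CPM in Neat1-/- mice, against 45.9 CPM in WT replicate 1 and 31.9 to 35.5 CPM in the other WT mice. Not every striatal marker followed these mice, as Scn4b was highest in WT replicate 4 and Rxrg in Neat1-/- replicate 4. Of 14 striatal markers, 12 passed the filter, and Six3 and Isl1 were under 1 CPM in every library. Pde10a was lower in Neat1-/- mice at an unadjusted p under 0.05 (log2 fold change -0.14, adjusted p = 0.580), beside 4.03% of all genes. Of the striatal markers 0 were higher, beside 4.27% of all genes, with a median log2 fold change of 0.03. Their summed level was 439 to 516 CPM in Neat1-/- mice and 466 to 565 CPM in WT mice. Their part in the values of Penk and Tac1 was not tested.

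**Figure D4:**
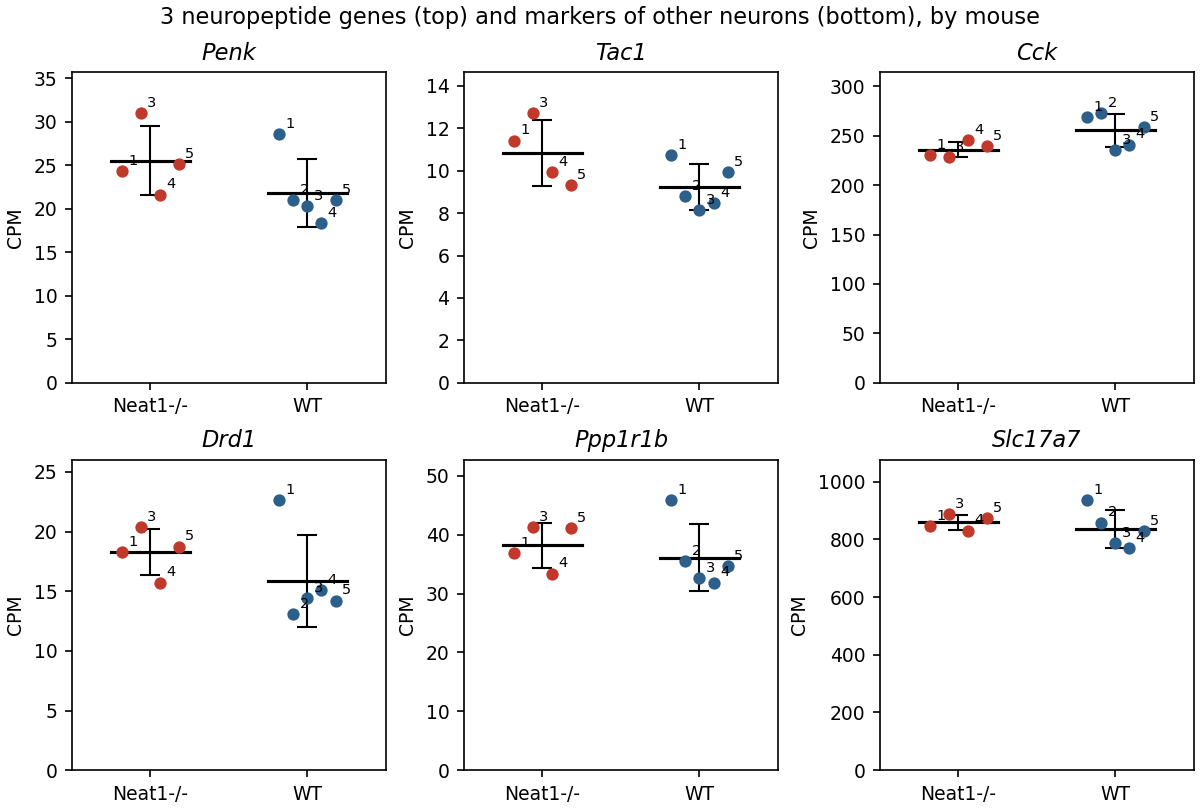
CPM of Penk, Tac1 and Cck (top) and of Drd1 and Ppp1r1b, genes of striatal projection neurons, and Slc17a7, a gene of pyramidal neurons (bottom), with each mouse numbered by replicate, the mean (line) and SD (bar), for 4 Neat1-/- mice (left, red) and 5 WT mice (right, blue). WT replicate 1 is the highest WT mouse for Penk at 28.6 CPM, Drd1 at 22.6 CPM and Ppp1r1b at 45.9 CPM.

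The other 7 genes of this role besides Sst had intervals that included 0. Npy, the neuropeptide Y gene of many somatostatin interneurons and neurogliaform cells, had 44.3 to 49.5 CPM in Neat1-/- mice and 47.4 to 51.8 CPM in WT mice, with a log2 fold change of -0.07, a standard error of 0.038 and an adjusted p of 0.630. Crhbp, which encodes a protein that binds corticotropin-releasing hormone, had 15.2 to 17.3 CPM in Neat1-/- mice and 14.1 to 16.3 CPM in WT mice, and its log2 fold change was 0.13 (standard error 0.064, p = 0.0602, exact permutation p = 0.0714). The hormone gene itself, Crh, differed in the other direction, by -0.12 on the log2 scale (standard error 0.11). The ranges of Crh overlapped, at 4.58 to 6.41 CPM in Neat1-/- mice and 5.26 to 6.61 CPM in WT mice.

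Cort, the cortistatin gene and relative of Sst, had 1.79 to 2.97 CPM in Neat1-/- mice and 1.85 to 2.66 CPM in WT mice, and its log2 fold change was 0.02 (standard error 0.17). For Tac2, the neurokinin B gene and relative of Tac1, the log2 fold change was 0.14 (standard error 0.13), and for Pnoc, the nociceptin precursor gene, it was -0.09 (standard error 0.14). All 3 were under 4 CPM in each library, and their intervals were correspondingly wide.

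Of the 8 genes of calcium-binding proteins, channels, receptor, enzyme and surface proteins, 5 estimates were positive and 3 negative, and 0 had an unadjusted p under 0.05 in edgeR. Kcnc1 and Kcnc2 encode Kv3 potassium channels that allow fast spiking. Kcnc2 had 189.6 to 201 CPM in Neat1-/- mice and 178 to 191 CPM in WT mice, the smallest spread of any marker among WT mice. Its log2 fold change was 0.06 (standard error 0.032, edgeR p = 0.0926), and its exact permutation p was 0.0317, where the smallest that 4 and 5 mice allow is 0.00794. It was the only marker with an exact permutation p under 0.05, a share of 3.23% of the 31 beside 6.81% of all genes. Kcnc1 had 125 to 131 CPM in Neat1-/- mice and 113 to 133 CPM in WT mice, and its log2 fold change was 0.04 (standard error 0.048).

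Reln, the extracellular glycoprotein of layer 1 and neurogliaform interneurons, had 145 to 164 CPM in Neat1-/- mice and 154 to 176 CPM in WT mice, with a log2 fold change of -0.05, a standard error of 0.049 and an adjusted p of 0.777. Nos1, which makes nitric oxide, ranged from 27.9 to 33.3 CPM in Neat1-/- mice and from 25.3 to 37.2 CPM in WT mice, the WT range enclosing the Neat1-/- range. Calb2, the calretinin gene, differed by 0.07 (standard error 0.12) and Htr3a, the ionotropic serotonin receptor gene of caudal eminence interneurons, by -0.07 (standard error 0.092) on the log2 scale. Chodl had the largest estimate of the 31 markers, 0.30, with a standard error of 0.27 (adjusted p = 0.775), so that its interval ran from -18.4% to 85.2%.

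**Figure D5:**
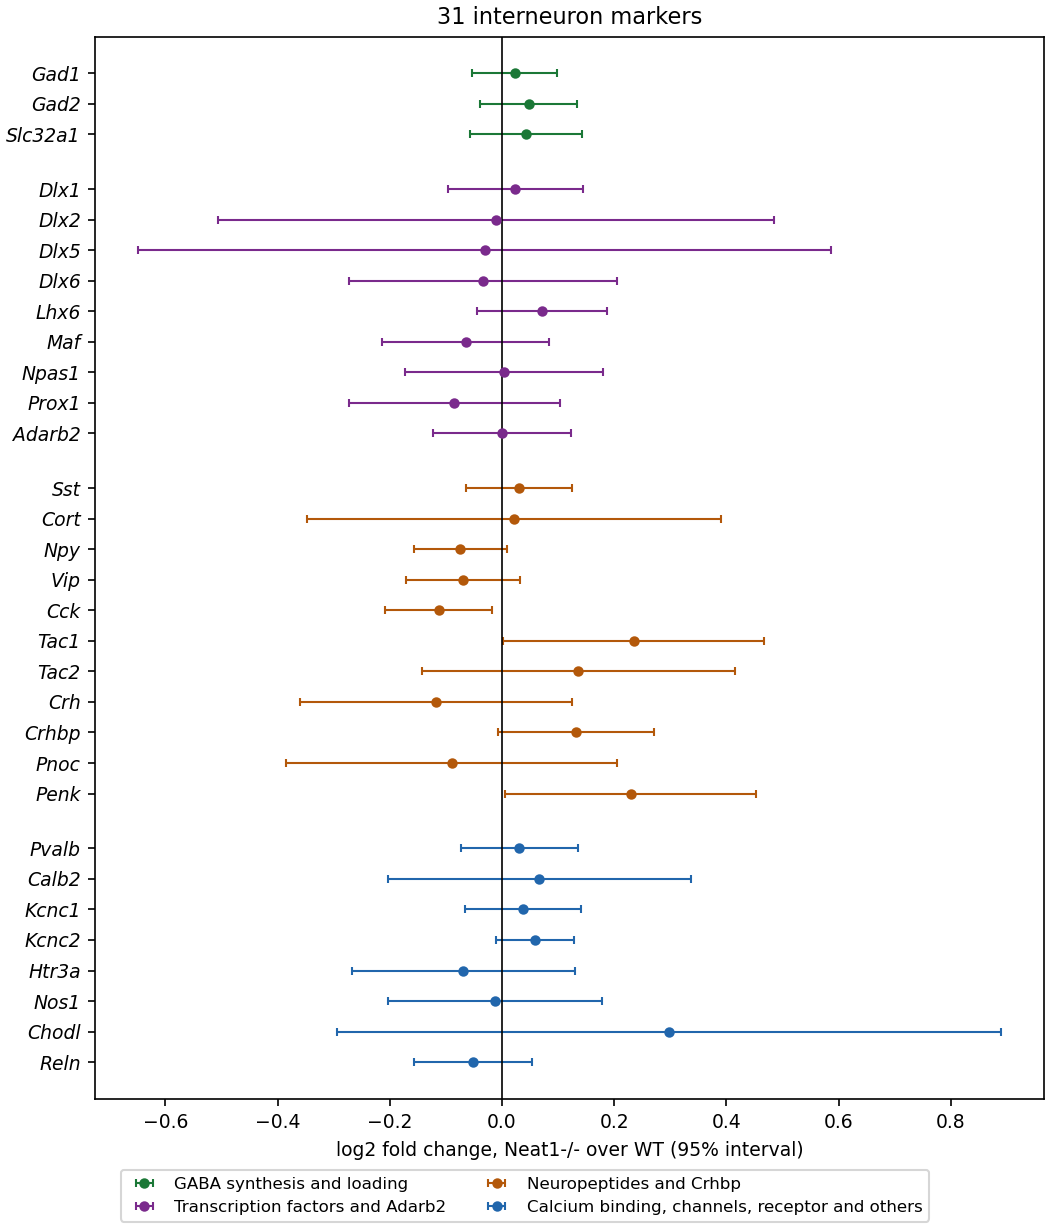
Log2 fold change of Neat1-/- over WT with its 95% interval for each of the 31 markers, grouped by role from top to bottom as in the legend. The intervals of Cck, Tac1 and Penk exclude 0 without adjustment, and the widest intervals belong to Dlx2, Dlx5 and Chodl, which had the lowest levels.

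The labels also give the age of each mouse, which entered the fit as a linear term in months. No gene of any kind passed an adjusted p of 0.05 for age (0.0% of all genes tested). At an unadjusted p under 0.05, 0 markers were higher with age, beside 2.86% of all genes, and 1 marker, Penk, was lower with age, beside 3.12% of all genes. The slope of Penk was -0.15 per month on the log2 scale (standard error 0.064, adjusted p = 0.820), with an unadjusted edgeR p of 0.0379. The highest WT value of Penk, 28.6 CPM, was in a mouse of 2 months, and the other WT mouse of that age had 20.96 CPM. Of the striatal markers, 3 were lower with age at the same threshold, and Ppp1r1b, one of them, had a slope of -0.15 per month with an unadjusted p of 0.0058. With Neat1-/- replicate 4 or WT replicate 1 or 4 left out, 0 markers were lower with age, beside 2.31%, 1.94% and 1.86% of all genes. With WT replicate 2 left out there were 2, beside 2.60% of all genes. With WT replicate 4 left out 1 marker was higher with age, beside 2.20% of all genes. With WT replicate 5 left out 2 were higher and 3 lower, beside 7.07% and 6.36% of all genes. With WT replicates 3 and 4 both left out, 2 were higher and 0 lower, beside 3.25% and 3.08% of all genes.

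A wider list of 35 other genes of GABAergic neurons gave small values as well, with a median log2 fold change of -0.0014. At an unadjusted p under 0.05, 1 of the 35 was higher in Neat1-/- mice, beside 4.27% of all genes, and 0 were lower, beside 4.03%. The higher gene was Nxph1, a neurexin ligand made by interneurons. Nxph1 had 41.0, 39.7, 38.2 and 41.2 CPM in Neat1-/- replicates 1, 3, 4 and 5, against 37.7, 37.6, 37.3, 38.1 and 37.5 CPM in WT replicates 1 to 5. Its genotypes did not overlap, and the difference was small (log2 fold change 0.09, standard error 0.036, edgeR p = 0.0297, adjusted p = 0.580, exact permutation p = 0.00794). Over all genes tested, 2.67% showed no overlap and 6.81% had an exact permutation p under 0.05. Of 15 genes of glutamatergic neurons, 3 were higher at an unadjusted p under 0.05 (Bcl11b, Neurod2 and Tbr1), beside 4.27% of all genes, and 0 lower. Their median was 0.03, and their summed level was 3008 to 3156 CPM in Neat1-/- mice and 2919 to 3202 CPM in WT mice. The ratio of Gad1 to Slc17a7 was 0.382 to 0.408 in Neat1-/- mice, inside the WT range of 0.337 to 0.435. All 12 genes of mature oligodendrocytes had negative estimates (median -0.27 on the log2 scale). Of these, 5 had an unadjusted p under 0.05, beside 4.03% of all genes that were lower at that threshold. Their summed level was 1921 to 2941 CPM in Neat1-/- mice and 2247 to 3486 CPM in WT mice. The part of the oligodendrocyte genes in the interneuron values was not tested. Genes of the choroid plexus and ependyma, which lie outside the cortex, summed to 17.9 to 29.4 CPM in Neat1-/- mice, against 119.4 CPM in WT replicate 3 and 23.9 to 28.6 CPM in the other WT mice.

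The deposited table of normalized log2 expression covers 28 of the 31 markers, all but Dlx2, Dlx5 and Chodl. In it 24 of the 28 had a difference between the genotype means of the same sign as the edgeR fold change, with a median difference of 0.01. Cck differed by -0.16, Tac1 by 0.13 and Penk by 0.16 in that table.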

How the data were processed

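For 43629 Ensembl genes the authors deposited whole-number counts, and for 13456 of these also normalized log2 values. The submitters' processing notes name STAR 2.5.0, HTSeq 0.8.0, limma and mm10, whereas the supplementary methods name other aligners. The methods describe TMM scaling, voomWithQualityWeights and age as a covariate. The counts were used as deposited. GENCODE vM21 named 97.5% of the IDs. Genes kept by filterByExpr by genotype (19753) were tested with edgeR 4.0.16 (R 4.3.3; quasi-likelihood, TMM, genotype and linear age, Benjamini-Hochberg over all genes). Single markers were also compared by exact permutation of CPM over 126 assignments. Alternatives were DESeq2 1.42.0, limma 3.58.1, other size factors, filters and age terms, a replicate block and each library left out. SciPy 1.17.1, NumPy 2.4.6 and pandas 2.3.3 were used in Python 3.11.15, with Matplotlib 3.10.9 for plots.

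The members and lists were chosen with earlier results of these data known. By the rule for named genes, values per library were given for Gad1, Gad2, Slc32a1, Sst, Pvalb, Vip and each marker with an unadjusted p under 0.05 or no overlap between genotypes. Of each other list up to 4 genes under that p, or else the 2 with the highest level, could be named. Drd1, Ppp1r1b, Scn4b, Rxrg, Slc17a7, Six3 and Isl1 were named after their values were seen. Further lists were counted at an unadjusted p under 0.05 in edgeR, beside 4.27% of all genes for higher and 4.03% for lower. Of 4 olfactory bulb genes tested, 1 was higher and 1 lower, and of 7 hippocampus genes, 0 and 1. Thalamus and hypothalamus had 0 and 2 of 6, astrocytes 1 and 0 of 9, and microglia 4 and 0 of 9. Endothelial and mural cells had 1 and 0 of 9, meninges 0 and 0 of 7, and choroid plexus 0 and 3 of 8. At an adjusted p of 0.05 in edgeR, 0 genes of these lists were called. Totals of 51276067 to 64648856 counts and 4 and 5 mice limit the precision.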

Additional observations from a re-analysis of the deposited data

Results flagged for a closer look

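Of 64 groups of values of a marker or of Neat1 within a genotype, 3 had a single mouse far from the others, and chance gives about 1 in 20 such groups. Sst was low in Neat1-/- replicate 1, at 69.4 CPM where the nearest of its group had 75.2 CPM. Vip was low in Neat1-/- replicate 3, at 51.7 CPM where the nearest had 57.7 CPM. Penk was high in WT replicate 1, at 28.6 CPM where the nearest had 21.0 CPM.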

How the results depend on the processing

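Under 19 alternatives, 0 of the 31 markers were called at an adjusted p of 0.05, and 16 kept the sign of their log2 fold change. The count of markers higher at an unadjusted p under 0.05, 2 in the report, was 0 with library size alone (3.28% of all genes). It was also 0 with a minimum mean of 50 counts (3.9%) or with age as a factor (4.14%), and 3 with no filter on low counts (3.35%). It was 1 with no age term (Tac1, beside 4.09% of all genes) and with the replicate block (Crhbp, 4.02%). It was also 1 with neither WT replicate 3 nor 4 (Kcnc1, 3.81%), an alternative added after seeing the data. The count of lower markers, 1 in the report, was 2 with the minimum of 50 counts (Cck and Npy, beside 4.66% of all genes). It was also 2 with neither WT replicate 3 nor 4 (Cck and Nos1, 3.48%) and 0 with the replicate block (5.78%). With age as a factor it was 1 (4.89%), where it was Npy and not Cck. With each library left out in turn, the higher count ranged from 0 to 3, beside 2.39% to 6.13% of all genes. The lower count ranged from 0 to 2, beside 2.68% to 8.58% of all genes, and the median from -0.0039 to 0.0342. For age, the count of higher markers, 0 in the report, was 2 with neither WT replicate 3 nor 4 (3.25% of all genes). With a library left out it was 0 to 2, beside 2.0% to 7.07% of all genes. The count of lower markers, 1 in the report, was 0 with library size alone (2.44%), the minimum of 50 counts (3.16%) or limma (4.35%). It was also 0 with the replicate block (1.39%) or neither WT replicate (3.08%). With a library left out it was 0 to 3, beside 1.86% to 6.36% of all genes. The cause of these changes was not tested. Npy, Crhbp, Kcnc1 and Nos1 had an unadjusted p under 0.05 in some alternatives only. The main fit did not treat replicate numbers as pairs. Deviations of same-numbered mice correlated at -0.0798 to 0.127, and not every mouse correlated best with its own number. The highest value was between Neat1-/- replicate 4 and WT replicate 4, both aged 4 months. With so few mice, and age left in the deviations, these correlations cannot decide whether the mice were paired. Low counts limit Dlx2, Dlx5 and Chodl, and the minimum of 50 counts left out Dlx5 and Chodl.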
